A study of Mus musculus with 18 samples.

Results

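Kiss1, Tac2, Pdyn, Tacr3, Kiss1r and Oprk1 are the genes of the KNDy system of the arcuate nucleus, and were read by symbol from the gene table of every library. They are 6 of the 23235 gene symbols in the tables, and all 6 were among the 14774 genes that were expressed highly enough to be tested. KNDy neurons release kisspeptin (made from Kiss1), neurokinin B (from Tac2) and dynorphin (from Pdyn). Neurokinin B acts through its receptor Tacr3 to excite KNDy neurons and dynorphin acts through the kappa opioid receptor Oprk1 to silence them, which makes the neurons fire in bursts. Kisspeptin is the output: it acts on Kiss1r of the neurons that release gonadotropin-releasing hormone. Estradiol is known to repress Kiss1 in the arcuate nucleus through the estrogen receptor ERα, the product of Esr1, as a part of negative feedback on gonadotropin release.

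The RNA came from the microdissected arcuate nucleus of female mice labelled C57/BL, and each group held 3 libraries (n = 3 throughout). KIKO, ERKO and wild-type (WT) females were all ovariectomized, so the oil groups are females without ovarian hormone, not cycling ones. The E2 groups received estradiol benzoate, 250 ng on day 5 after surgery and 1500 ng on day 6, and the oil groups received oil on both days. Tissue was taken 24 h after the second injection, at the end of a 1 h fast. The groups are thus KIKO E2, KIKO oil, ERKO E2, ERKO oil, WT E2 and WT oil. ERKO names a knockout of ERα. KIKO, as the name is generally used, stands for an ERα allele mutated so that the protein no longer binds estrogen response elements, carried over a null allele, and the series title names signalling dependent on and independent of those elements as its subject. How the alleles were built, the age of the mice and the number of animals behind a library are not given in the sources used here, so the p-values measure the spread between libraries, which may be technical.

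The values are FPKM (a count of fragments divided by transcript length and by library depth). Tests are limma's moderated test on log2(FPKM + 1), adjusted over the 14774 genes, with 0.05 as the threshold. A log2 change is E2 minus oil, or the first-named genotype minus the second, and is given ± its standard error (SE). The added 1 shrinks the changes of genes with few FPKM.

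Depth relative to the typical library ran from 0.728 to 1.50 over the 18 libraries. The confidence bounds beside each value imply 87 to 280 fragments for Kiss1r, 113 to 1034 for Tacr3, 242 to 877 for Oprk1, 277 to 1690 for Pdyn, 100 to 3465 for Kiss1 and 3492 to 11304 for Tac2 per library. Esr1, the targeted gene, ran from 2.85 to 3.89 FPKM in KIKO E2, 2.91 to 4.08 in KIKO oil, 0.212 to 2.34 in ERKO E2, 1.62 to 2.39 in ERKO oil, 3.45 to 5.88 in WT E2 and 5.38 to 11.9 in WT oil. It was lowest in ERKO, and a value per gene does not show which exons were read. The arcuate neuron markers Agrp, Npy, Pomc, Ghrh and Tbx3 were above 0 in every group. Of 12 marker lists of cell types and neighbouring nuclei, 2 genes passed in any comparison, Gfap of astrocytes and Gldn of the ventromedial nucleus. The library ERKO E2 3 stood apart in correlations taken over genes averaging 0.5 FPKM or more, small RNA genes included. It correlated with the others at 0.914 to 0.947, against 0.956 to 0.990 among the other 17 libraries. It also held 13107 FPKM of Avp, the vasopressin gene of the paraventricular and supraoptic nuclei, so results that rest on it are given with and without it.

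Promoter sequences are shown for the 4 genes that changed together after E2 in WT. They are RefSeq sequences of build GRCm38.p6 from 250 bases before to 50 bases after a start listed for the gene, written 5′ to 3′ on the gene's own strand. Whether that start is the first base of the gene was not checked. Kiss1 is at chr1:133326962-133327261 on the plus strand, Tac2 at chr10:127724228-127724527 on the plus strand, Pdyn, at the first of its 2 listed starts, at chr2:129699889-129700188 on the minus strand, and Tacr3 at chr3:134828757-134829056 on the plus strand. Capitals mark matches to TGACC, which is one arm of the estrogen response element.
Kiss1: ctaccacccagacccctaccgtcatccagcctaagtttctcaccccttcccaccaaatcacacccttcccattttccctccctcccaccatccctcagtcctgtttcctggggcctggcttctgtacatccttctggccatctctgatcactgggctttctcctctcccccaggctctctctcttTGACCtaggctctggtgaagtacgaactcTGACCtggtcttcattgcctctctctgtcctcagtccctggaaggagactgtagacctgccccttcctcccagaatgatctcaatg
Tac2: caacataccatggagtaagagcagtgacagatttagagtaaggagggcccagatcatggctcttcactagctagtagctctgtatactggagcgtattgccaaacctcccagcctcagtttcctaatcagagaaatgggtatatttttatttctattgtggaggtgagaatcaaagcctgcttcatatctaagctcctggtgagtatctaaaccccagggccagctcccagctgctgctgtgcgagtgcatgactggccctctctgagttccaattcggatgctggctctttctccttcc
Pdyn: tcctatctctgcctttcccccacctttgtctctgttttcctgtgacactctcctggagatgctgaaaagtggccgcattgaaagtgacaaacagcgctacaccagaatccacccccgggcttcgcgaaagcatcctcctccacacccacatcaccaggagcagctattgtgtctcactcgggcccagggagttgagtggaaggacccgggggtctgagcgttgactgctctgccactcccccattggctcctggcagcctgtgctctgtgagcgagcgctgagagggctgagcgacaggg
Tacr3: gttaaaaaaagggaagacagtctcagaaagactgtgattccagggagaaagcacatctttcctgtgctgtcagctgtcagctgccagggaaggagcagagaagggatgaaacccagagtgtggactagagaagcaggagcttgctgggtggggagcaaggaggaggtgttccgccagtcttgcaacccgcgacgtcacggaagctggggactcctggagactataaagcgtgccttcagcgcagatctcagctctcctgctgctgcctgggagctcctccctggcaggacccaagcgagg

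The whole estrogen response element was searched as GGTCANNNTGACC on both strands, and none of the 5 members with a listed promoter held it, against 0.0707% of 32544 mouse promoters of the same length. One arm of it (GGTCA on either strand, so TGACC as well, and contained in the whole element) was found in Kiss1 only among these members. Kiss1 holds 2 matches, whose first bases lie at −65 and −36 from its listed start, and 10.9% of all promoters hold 2 or more. The Sp1 box GGGCGG, a site of a factor through which ERα can act without touching DNA itself, was found in Kiss1r only, at −32 and −10, and 19.6% of promoters hold 2 or more. Neither TGANTCA, the AP-1 site, nor TGACGTCA, the cyclic AMP response element, was in any member's window, against 7.79% and 1.80% of promoters. A match describes the letters of the window and is not a binding site, and a missing one says only that these letters are not in the window.

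Tac2 had the highest level of the 6 genes per length. Averaged over the 18 libraries, it ranked 31st of the 14774 tested genes at 838 FPKM, Kiss1 ranked 142nd at 337 FPKM and Pdyn 725th at 108 FPKM. The receptors were far lower on the same scale, at 7.89 FPKM for Tacr3, 6.40 FPKM for Oprk1 and 3.33 FPKM for Kiss1r. The gene models behind the FPKM span fewer bases from first to last than RefSeq's for Pdyn (1868 against 13390) and Kiss1 (2511 against 7836). So do those of Kiss1r (5302 against 7137) and, slightly, Oprk1 (17641 against 17685). These spans include introns and are not the transcript lengths that FPKM are divided by. How far the order between genes depends on the models was not tested. Comparisons of a gene between groups use the same model throughout.

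**Figure D1:**
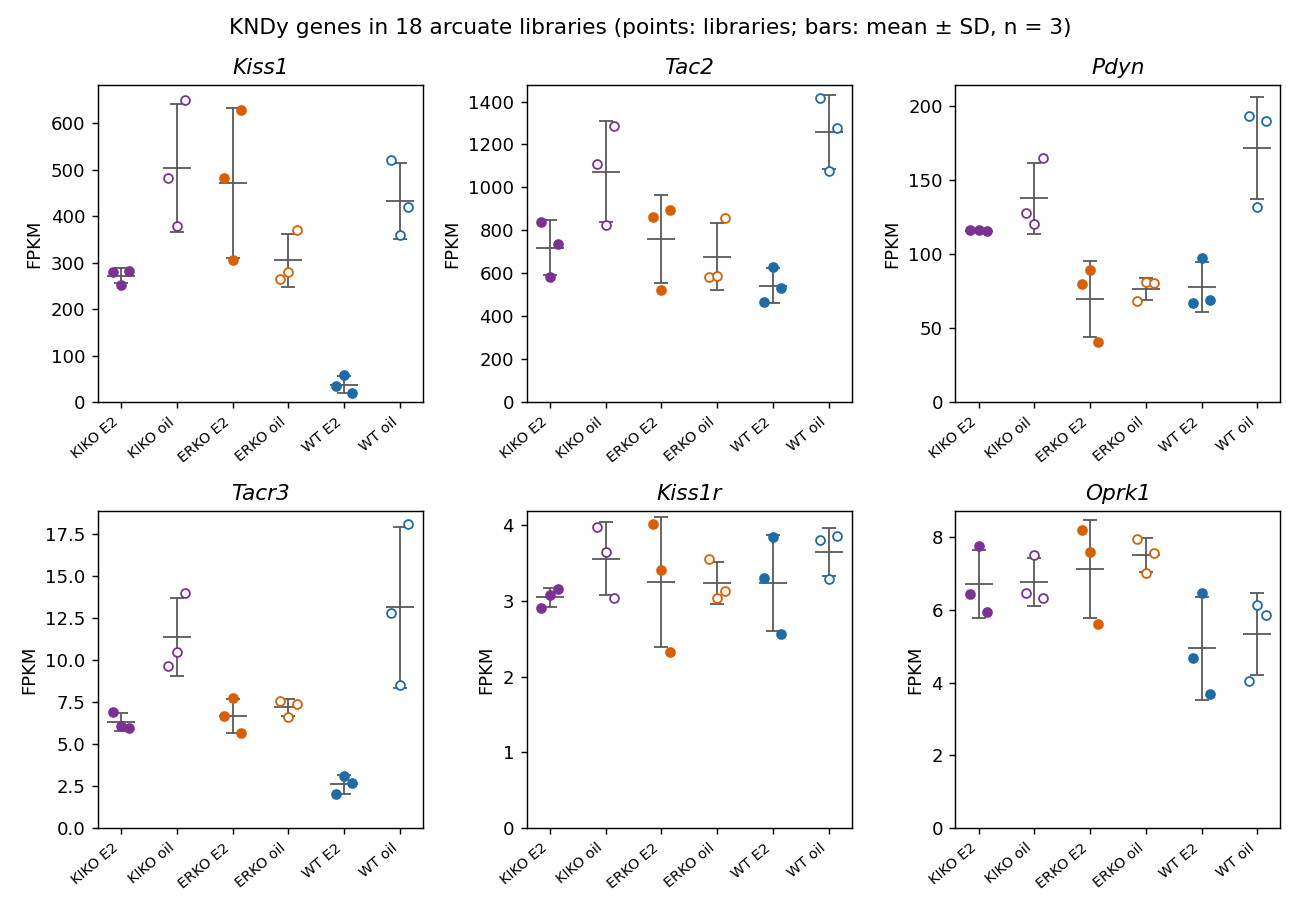
FPKM of each KNDy gene (y axis, from 0, a different scale in each panel) by group (x axis). Points are libraries, filled for E2 and open for oil, and bars are the mean ± SD of 3 libraries. The WT E2 libraries are the lowest 3 of the 18 for Kiss1, at 20.9 to 58.3 FPKM, and for Tacr3, at 2.00 to 3.10 FPKM, while the panels of Kiss1r and Oprk1 show no such step.

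The 3 peptide genes and the neurokinin B receptor gene fell after E2 in WT mice. Kiss1r and Oprk1 did not pass, and no library of WT E2 overlapped WT oil for any of the 4 that fell. Of the 6 genes, 4 passed the threshold, where 0.785% of all tested genes did in either direction and 0.183% did downward. Non-overlap of the libraries is more common, at 15.8% of all genes and 6.45% downward.

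Kiss1 stood at 34.8, 58.3 and 20.9 FPKM in WT E2 libraries, against 520.2, 359.5 and 419 FPKM in WT oil libraries. Every WT E2 library was far below every WT oil library. The mean was 38.0 ± 18.9 FPKM in WT E2 and 433 ± 81.2 FPKM in WT oil (SD), which is 8.78% of the oil level, and the log2 change was −3.58 ± 0.32 (95% interval −4.25 to −2.91, limma adjusted p = 1.28e-05). Among the 14774 genes this was the 7th smallest p of the comparison. In a bulk sample, fewer cells that express a gene and less RNA per cell cannot be told apart.

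Tac2 stood at 468, 628 and 532 FPKM in WT E2 libraries, against 1417, 1074 and 1278 FPKM in WT oil libraries. All 3 libraries were lower after E2, yet Tac2 in WT E2 remained an abundant transcript. The log2 change was −1.21 ± 0.24 (95% interval −1.71 to −0.71, limma adjusted p = 0.0201). Pdyn stood at 66.9, 97.2 and 69.3 FPKM in WT E2 libraries, against 193, 132 and 189.6 FPKM in WT oil libraries. The groups did not overlap, with WT oil 2 the nearest to the WT E2 libraries. The log2 change of Pdyn was −1.13 ± 0.24 (95% interval −1.64 to −0.62, limma adjusted p = 0.0377).

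The calls for Tac2 and Pdyn rest on few libraries. Tac2 lost its call without WT oil 1, WT oil 3, WT E2 1 or WT E2 3 (adjusted p = 0.110, 0.0554, 0.109 and 0.0831), and Pdyn lost it in the same 4 fits (adjusted p = 0.158, 0.102, 0.163 and 0.166). For Pdyn the call ended too when low values were not filtered, under quantile normalization and with the replicate number as a block (adjusted p = 0.0504, 0.0697 and 0.0686). Without those libraries both stayed lower, at log2 changes of −1.20 to −1.11 for Tac2 and −1.06 to −1.03 for Pdyn. Over 16 alternatives the adjusted p of Tac2 ran from 0.00629 to 0.110 (12 calls) and that of Pdyn from 0.000664 to 0.166 (9 calls), and Kiss1 and Tacr3 were called in all 16.

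Tacr3, the receptor through which KNDy neurons excite each other, stood at 2.00, 3.10 and 2.70 FPKM in WT E2 libraries, against 12.8, 8.53 and 18.1 FPKM in WT oil libraries. Its WT oil libraries spread over a 2.12-fold range, and the lowest of them was still above every WT E2 library. The mean level in WT E2 was 19.8% of that in WT oil, and the log2 change was −1.93 ± 0.21 (95% interval −2.37 to −1.49, limma adjusted p = 0.000101).

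The other receptors gave no such difference. Kiss1r stood at 3.31, 3.84 and 2.57 FPKM in WT E2 libraries, against 3.81, 3.29 and 3.86 FPKM in WT oil libraries. The libraries overlapped, the log2 change was −0.14 ± 0.15 (95% interval −0.47 to 0.18), and the limma adjusted p was 0.857. The cell bodies on which kisspeptin acts lie mostly outside the arcuate nucleus, and the measured Kiss1r is that of the dissected tissue. Oprk1 stood at 4.67, 6.46 and 3.69 FPKM in WT E2 libraries, against 4.05, 6.13 and 5.87 FPKM in WT oil libraries. These libraries overlapped too, with a log2 change of −0.11 ± 0.18 (95% interval −0.48 to 0.27, limma adjusted p = 0.935). These intervals leave out, for both genes, a fall as large as that of Pdyn.

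Sums of cell type markers were set beside these results. The summed FPKM of the 5 arcuate markers ran from 2165 to 2629 in WT E2 and from 2366 to 2700 in WT oil, and that of the 5 neuron markers from 663 to 784 in WT E2 and from 768 to 772 in WT oil. Within the arcuate sum Pomc was lower without overlap, at 701 to 909 FPKM in WT E2 against 1162 to 1418 FPKM in WT oil. Agrp was higher without overlap, at 255 to 337 FPKM in WT E2 against 165 to 198 FPKM in WT oil, as was Ghrh. Npy and Tbx3 overlapped. Within the neuron sum Tubb3 and Nefl were lower without overlap, and the other markers overlapped. The astrocyte sum, from Gfap, Aqp4, Slc1a3, Aldh1l1 and Gja1, ran from 482 to 563 in WT E2 and from 575 to 738 in WT oil, without overlap, and no marker of these 3 lists was at 0. The astrocyte sum was the one of 12 without overlap here. The part of these differences in the results for the KNDy genes was not tested. The nearest tested protein-coding genes on each side of the members were then read, and untested genes may lie between. They were Plekha6 and Etnk2 for Kiss1, Myo1a and Zbtb39 for Tac2, and Sirpa and Stk35 for Pdyn. For the receptors they were Cxxc4 and Bdh2 (Tacr3), Med16 and Arid3a (Kiss1r), and Atp6v1h and Npbwr1 (Oprk1). Of these 12 genes 0 passed limma's threshold for E2 against oil in any genotype. The nearest to it was Npbwr1, a neuropeptide receptor gene, at 0.47 ± 0.14 in WT (adjusted p = 0.194).

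**Figure D2:**
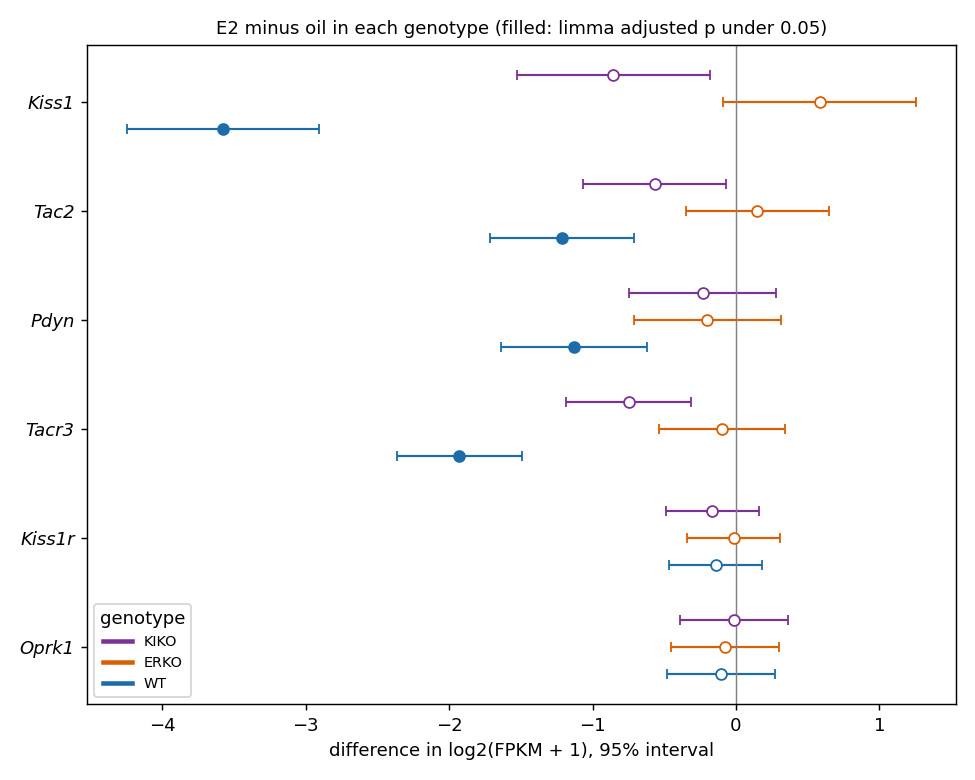
Difference between E2 and oil in log2(FPKM + 1) (x axis, 0 marked by a line) for each KNDy gene (rows) in KIKO, ERKO and WT, with 95% intervals of the limma fit of 3 libraries a group. Filled points passed the adjusted threshold. The WT points of Kiss1, Tac2, Pdyn and Tacr3, from −3.58 to −1.13, are the only filled ones, and the ERKO intervals all include 0.

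In KIKO mice none of the 6 genes passed, while Kiss1, Pdyn and Tacr3 were lower in every E2 library than in any oil library. By limma 0 members were called, where 0.00677% of genes were (a single gene). At an unadjusted p under 0.05 there were 3 members and 140 genes. Non-overlapping libraries, which 3 members had, were found for 7.41% of genes, and for 2.86% downward.

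Kiss1 stood at 280.0, 253 and 282 FPKM in the KIKO E2 libraries, against 483, 378 and 651 FPKM in the KIKO oil libraries. The KIKO E2 libraries were close to each other and below the lowest KIKO oil library. The mean level in KIKO E2 was 53.9% of that in KIKO oil, with a log2 change of −0.85 ± 0.32 (95% interval −1.53 to −0.18, limma adjusted p = 1). Tacr3 stood at 6.92, 6.09 and 5.94 FPKM in the KIKO E2 libraries, against 9.67, 10.5 and 14.0 FPKM in the KIKO oil libraries. Again no libraries overlapped, and the log2 change was −0.75 ± 0.21 (95% interval −1.18 to −0.31, limma adjusted p = 1).

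Tac2 stood at 840.2, 583 and 736 FPKM in the KIKO E2 libraries, against 1109, 824 and 1288 FPKM in the KIKO oil libraries. One library of each group crossed into the range of the other, KIKO E2 1 and KIKO oil 2, and the log2 change was −0.57 ± 0.24 (95% interval −1.07 to −0.07, limma adjusted p = 1). Pdyn stood at 115.9, 116.0 and 115.7 FPKM in the KIKO E2 libraries, against 128, 121 and 165 FPKM in the KIKO oil libraries. The KIKO E2 libraries were almost level for this gene and just under the lowest KIKO oil library, with a log2 change of −0.23 ± 0.24. Kiss1r stood at 2.91, 3.09 and 3.16 FPKM in the KIKO E2 libraries, against 3.99, 3.65 and 3.04 FPKM in the KIKO oil libraries, and the groups overlapped. Oprk1 overlapped as well, at 6.44, 7.75 and 5.95 FPKM in the KIKO E2 libraries, against 6.47, 7.52 and 6.32 FPKM in the KIKO oil libraries. Of the 12 marker sums the neuron sum did not overlap, at 759 to 787 FPKM in KIKO E2 against 806 to 838 FPKM in KIKO oil, and its part in these values was not tested.

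In ERKO mice the E2 and oil libraries overlapped for all 6 genes. By limma 0 members and 0% of genes passed, with 0 members and 1068 genes at an unadjusted p under 0.05, and 12.3% of genes had libraries that did not overlap. Kiss1 stood at 481, 306 and 629 FPKM in the ERKO E2 libraries, against 265, 280.0 and 370 FPKM in the ERKO oil libraries. Its mean was the higher one after E2, at 472 ± 161 FPKM in ERKO E2 and 305 ± 56.5 FPKM in ERKO oil. The log2 change was 0.58 ± 0.32 (95% interval −0.09 to 1.26, limma adjusted p = 0.473). Without ERKO E2 3, the library that stood apart and had the highest Kiss1 of its group, it was 0.35.

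Tac2 stood at 861, 524 and 896 FPKM in the ERKO E2 libraries, against 585, 589 and 858 FPKM in the ERKO oil libraries. The ranges were much the same, and the log2 change was 0.15 ± 0.24 (95% interval −0.35 to 0.65). Pdyn stood at 79.7, 89.1 and 40.8 FPKM in the ERKO E2 libraries, against 68.0, 80.9 and 80.6 FPKM in the ERKO oil libraries. Its lowest value in all 18 libraries was that of ERKO E2 3, and the log2 change was −0.20 ± 0.24 with that library and 0.14 without it. Tacr3 stood at 6.66, 7.73 and 5.69 FPKM in the ERKO E2 libraries, against 7.59, 6.63 and 7.36 FPKM in the ERKO oil libraries. The log2 change of Tacr3 was −0.10 ± 0.21 (95% interval −0.53 to 0.34), so its interval leaves out the fall seen in WT. Kiss1r ran from 2.33 to 4.02 FPKM in ERKO E2 and from 3.03 to 3.55 FPKM in ERKO oil, and Oprk1 from 5.61 to 8.19 FPKM in ERKO E2 and from 7.01 to 7.95 FPKM in ERKO oil. For both receptors the ERKO E2 range enclosed the ERKO oil range. Among the 12 marker sums the paraventricular one was higher after E2 without overlap. It ran from 4987 to 20512.5 FPKM in ERKO E2 and from 1774 to 4331 FPKM in ERKO oil, and its part in these values was not tested.

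The E2 responses of the genotypes were set against each other by the interaction term, which asks whether E2 minus oil differs between 2 genotypes. The KIKO and ERKO terms against WT share the WT libraries, so they are not independent of each other. Kiss1 passed in both. For KIKO minus WT it was the single member called, where 0.135% of genes were called (0.0271% in its direction), with a difference of 2.72 ± 0.45 on the log2 scale (95% interval 1.77 to 3.67, limma adjusted p = 0.0190). Without KIKO E2 1, KIKO E2 3, KIKO oil 1, KIKO oil 2, WT E2 1 or WT oil 1 the Kiss1 difference was 2.53 to 2.72 and missed the threshold, at adjusted p from 0.0541 to 0.0712 (0.00401 to 0.0712 over 22 alternatives). For Tacr3 the difference was 1.18 ± 0.29 (limma adjusted p = 0.214), which passed in a single fit, without WT oil 2 (1.44, adjusted p = 0.0331), and lay between 0.0331 and 0.563 over all 22 alternatives. For Pdyn it was 0.90 ± 0.34 (adjusted p = 0.824) and for Tac2 0.64 ± 0.33 (adjusted p = 0.999).

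For ERKO minus WT 2 members were called, where 0.278% of genes were (0.0948% upward). The Kiss1 difference was 4.16 ± 0.45 (95% interval 3.21 to 5.11, limma adjusted p = 0.000242) and the Tacr3 difference 1.83 ± 0.29 (95% interval 1.21 to 2.45, limma adjusted p = 0.00903). Without ERKO E2 3 they were 3.92 and 1.93 (adjusted p = 0.00131 and 0.00465). Over 21 alternatives the adjusted p of Kiss1 ran from 6.44e-05 to 0.00525 and that of Tacr3 from 0.000932 to 0.0724, the highest with only these 4 groups in the fit. The differences of Tac2, 1.36 ± 0.33 (adjusted p = 0.119), and Pdyn, 0.93 ± 0.34 (adjusted p = 0.291), did not pass. Pdyn did so at 1.27 without ERKO E2 3 (adjusted p = 0.0209), and Tac2 did so at 1.61 without ERKO E2 2 (adjusted p = 0.0301). Over the alternatives they ran from 0.0209 to 0.617 for Pdyn and from 0.0301 to 0.361 for Tac2.

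Between the mutants no response differed by limma. For KIKO minus ERKO 0 members and 0% of genes were called, and 3 members and 323 genes had an unadjusted p under 0.05. These 3 were Kiss1 at −1.44 ± 0.45 (95% interval −2.39 to −0.49), Tac2 at −0.72 ± 0.33 and Tacr3 at −0.65 ± 0.29, each with an adjusted p of 0.746. Kiss1r and Oprk1 had interaction terms of −0.15 to 0.13 in the 3 pairs of genotypes, none of which passed.

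Under oil no KNDy gene passed between KIKO and WT. By limma 0 members were called for KIKO oil against WT oil, where 0.0135% of genes were, and 0 members and 1485 genes had an unadjusted p under 0.05. Kiss1 averaged 504 ± 138 FPKM in KIKO oil and 433 ± 81.2 FPKM in WT oil, and the log2 difference was 0.20 ± 0.32 (95% interval −0.47 to 0.87). Tac2 averaged 1074 ± 234 FPKM in KIKO oil and 1256 ± 172 FPKM in WT oil (−0.24 ± 0.24, 95% interval −0.74 to 0.26). Pdyn (−0.31 ± 0.24), Tacr3 (−0.15 ± 0.21) and Kiss1r (−0.03 ± 0.15) also overlapped. Oprk1 was the one member whose libraries did not, with 6.32 to 7.52 FPKM in KIKO oil against 4.05 to 6.13 FPKM in WT oil, where 21.9% of genes did not overlap (12.5% upward), and it did not pass (0.30 ± 0.18, limma adjusted p = 0.600). Of the 12 marker sums 6 were lower in KIKO oil without overlapping WT oil. The arcuate sum was 1626 to 1953 FPKM in KIKO oil against 2366 to 2700 FPKM in WT oil, the astrocyte sum 522 to 539 FPKM in KIKO oil against 575 to 738 FPKM in WT oil, and the others were those of oligodendrocytes, microglia, tanycytes and the paraventricular nucleus. The neuron sum was higher, at 806 to 838 FPKM in KIKO oil against 768 to 772 FPKM in WT oil, but its markers did not move together. Snap25 was higher without overlap, at 431 to 459 FPKM in KIKO oil against 360 to 372 FPKM in WT oil, as were Syt1 and Rbfox3. Tubb3 was lower without overlap, at 214 to 234 FPKM in KIKO oil against 247 to 258 FPKM in WT oil, as was Nefl. The part of these sums in the values of the KNDy genes was not tested.

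ERKO libraries under oil differed from WT in dynorphin. Pdyn, at 68.0, 80.9 and 80.6 FPKM in ERKO oil, against 193, 132 and 189.6 FPKM in WT oil, was the single member that passed, where 1.43% of genes did (0.684% downward). Each ERKO oil library held less than any WT oil library, and the mean, 76.5 FPKM in ERKO oil, was close to the 77.8 FPKM of WT E2. The log2 difference was −1.14 ± 0.24 (95% interval −1.65 to −0.63, limma adjusted p = 0.0361). The call was lost without any one library of either group (adjusted p = 0.0591 to 0.154), at differences of −1.31 to −1.04, and with quantile normalization and the replicate block (adjusted p = 0.0617 and 0.0600), and over 16 alternatives the adjusted p ran from 0.00126 to 0.154.

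Tac2 and Tacr3 were also lower in each library of ERKO oil than in any of WT oil, and Oprk1 was higher, which made 4 of 6 members without overlap where 39.3% of genes had none. Tac2 averaged 677 ± 157 FPKM in ERKO oil and 1256 ± 172 FPKM in WT oil (−0.91 ± 0.24, limma adjusted p = 0.0604). Tacr3 averaged 7.19 ± 0.504 FPKM in ERKO oil and 13.2 ± 4.80 FPKM in WT oil (−0.73 ± 0.21, adjusted p = 0.0762). Both passed with ERKO E2 3 left out of the shared fit (adjusted p = 0.0105 and 0.0161). Over 16 alternatives they ran from 0.0105 to 0.218 for Tac2 and from 0.0161 to 0.202 for Tacr3. Oprk1 averaged 7.51 ± 0.476 FPKM in ERKO oil and 5.35 ± 1.13 FPKM in WT oil (0.44 ± 0.18, adjusted p = 0.174). Kiss1 overlapped, at 265, 280.0 and 370 FPKM in ERKO oil against 520.2, 359.5 and 419 FPKM in WT oil (−0.50 ± 0.32, adjusted p = 0.360). Of the 12 marker sums 5 were lower in ERKO oil without overlapping WT oil. The arcuate sum was 1242 to 1652 FPKM in ERKO oil against 2366 to 2700 FPKM in WT oil, and the astrocyte sum was 484 to 515 FPKM in ERKO oil against 575 to 738 FPKM in WT oil. The oligodendrocyte sum was 1043 to 1211 FPKM in ERKO oil against 1240.1 to 1684 FPKM in WT oil, the tanycyte sum 191 to 235 FPKM in ERKO oil against 241 to 292 FPKM in WT oil, and the paraventricular sum 1774 to 4331 FPKM in ERKO oil against 4497 to 7316 FPKM in WT oil. Within the astrocyte sum Gfap passed on its own (−1.06 ± 0.20, limma adjusted p = 0.0278). The neuron sum overlapped, at 758 to 821 FPKM in ERKO oil and 768 to 772 FPKM in WT oil, while its markers moved in opposite directions. Snap25 was higher without overlap, at 421 to 455 FPKM in ERKO oil against 360 to 372 FPKM in WT oil, as was Syt1. Tubb3 was lower without overlap, at 182 to 195 FPKM in ERKO oil against 247 to 258 FPKM in WT oil, as was Nefl. Rbfox3 overlapped. The part of these sums in the differences of the peptide genes was not tested.

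KIKO oil averaged above ERKO oil for Pdyn, Kiss1, Tac2 and Tacr3, and no member passed. By limma 0 members and 0% of genes were called, while 4 members and 340 genes had an unadjusted p under 0.05, and for 3 members the libraries did not overlap, where 28.1% of genes had none (13.6% upward). The differences were 0.83 ± 0.24 for Pdyn, 0.70 ± 0.32 for Kiss1, 0.66 ± 0.24 for Tac2 and 0.58 ± 0.21 for Tacr3, each with an adjusted p of 0.998. With library weights Pdyn and Tacr3 passed (adjusted p = 0.0116 and 0.0483), the lowest of 16 alternatives for each. Pdyn stood at 128, 121 and 165 FPKM in KIKO oil and no higher than 80.9 FPKM in ERKO oil. Among the 12 marker sums the astrocyte one did not overlap, at 522 to 539 FPKM in KIKO oil against 484 to 515 FPKM in ERKO oil. Its part in these values was not tested.

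After E2 Kiss1 and Tacr3 were higher in both mutants than in WT. For KIKO E2 against WT E2 these 2 members were called, where 0.948% of genes were (0.203% upward), and for ERKO E2 against WT E2 the same 2 were called, where 1.30% of genes were (0.271% upward). Both comparisons use the WT E2 libraries. Kiss1 averaged 272 ± 16.1 FPKM in KIKO E2, 472 ± 161 FPKM in ERKO E2 and 38.0 ± 18.9 FPKM in WT E2. That is 7.15-fold higher in KIKO E2 and 12.4-fold higher in ERKO E2, with log2 differences of 2.92 ± 0.32 (limma adjusted p = 0.000107) and 3.66 ± 0.32 (adjusted p = 6.82e-06). Every mutant library was above every WT library.

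Tacr3 averaged 6.32 ± 0.525 FPKM in KIKO E2, 6.69 ± 1.02 FPKM in ERKO E2 and 2.60 ± 0.554 FPKM in WT E2. It was 2.43-fold higher in KIKO E2 (1.03 ± 0.21, limma adjusted p = 0.0233) and 2.57-fold higher in ERKO E2 (1.10 ± 0.21, adjusted p = 0.0123). No mutant library overlapped WT E2. The KIKO call of Tacr3 was lost without any one library of the 2 groups (adjusted p = 0.0547 to 0.121), and the ERKO call was lost without WT E2 1 (adjusted p = 0.0719). With ERKO E2 3 left out, Kiss1 and Tacr3 in ERKO E2 differed by 3.42 and 1.19 (adjusted p = 9.92e-05 and 0.00453). With only the ERKO E2 and WT E2 libraries in the fit both calls were lost (adjusted p = 0.0550 for Kiss1 and 0.231 for Tacr3), the highest of 15 alternatives.

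Tac2 did not separate the genotypes after E2, with 0.40 ± 0.24 for KIKO E2 and 0.46 ± 0.24 for ERKO E2 against WT E2. Pdyn was 115.7 to 116.0 FPKM in KIKO E2 against 66.9 to 97.2 FPKM in WT E2, without overlap, and did not pass (0.59 ± 0.24, limma adjusted p = 0.445). It passed with library weights and with ERKO E2 3 left out of the shared fit (adjusted p = 0.0300 and 0.0457), within a range of 0.0300 to 0.914 over 16 alternatives. Thus 3 members had no overlap for KIKO E2 against WT E2, where 21.9% of genes had none (11.4% upward), and 2 for ERKO E2 against WT E2, where 11.0% had none (4.70% upward). For ERKO E2 against WT E2 the Pdyn libraries overlapped (−0.21 ± 0.24). The Oprk1 difference from WT E2 was 0.40 ± 0.18 for KIKO E2 and 0.47 ± 0.18 for ERKO E2, neither of which passed (adjusted p = 0.516 and 0.302). Without ERKO E2 3 the Oprk1 difference of ERKO E2 was 0.61 (adjusted p = 0.0438, between 0.0312 and 0.999 over 15 alternatives). Among the 12 marker sums the endothelial one was lower in KIKO E2 without overlap, at 62.1 to 85.8 FPKM against 89.9 to 104 FPKM in WT E2. All 12 overlapped between ERKO E2 and WT E2. The part of the endothelial sum in the values of the KNDy genes was not tested.

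KIKO E2 and ERKO E2 differed from each other in direction between Kiss1 and Pdyn, and neither gene passed. By limma 0 members were called, where 0.0135% of genes were, and 2 members and 475 genes had an unadjusted p under 0.05. Kiss1 was lower in every KIKO E2 library (253 to 282 FPKM) than in any ERKO E2 library (306 to 629 FPKM), with a difference of −0.74 ± 0.32. Pdyn was higher in every KIKO E2 library (115.7 to 116.0 FPKM) than in any ERKO E2 library (40.8 to 89.1 FPKM), with a difference of 0.80 ± 0.24. Both had a limma adjusted p of 0.788, and 5.50% of all genes had no overlap here. Without ERKO E2 3 the differences were −0.50 and 0.45.

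**Figure D3:**
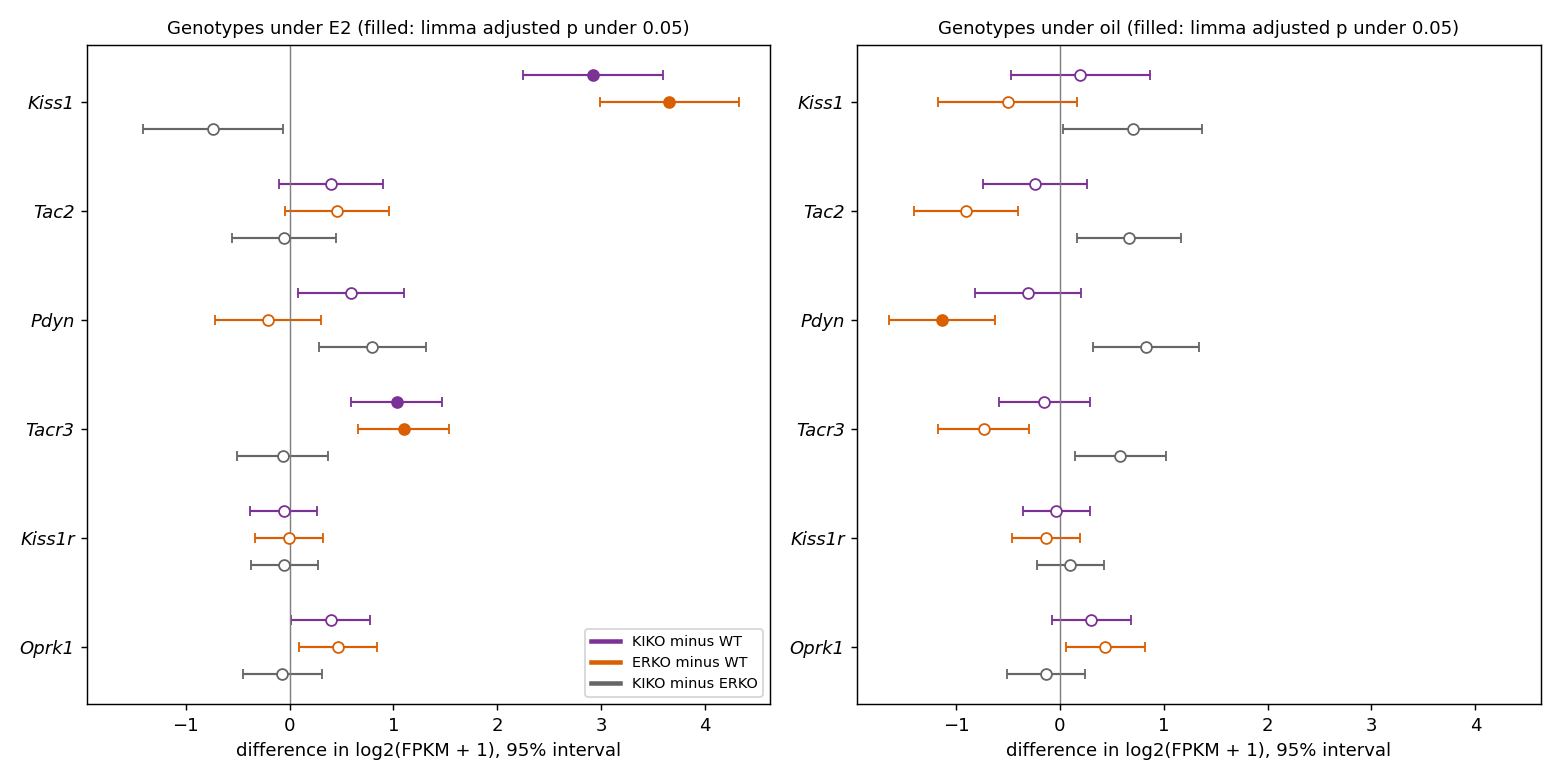
Differences between genotypes in log2(FPKM + 1) (x axis, 0 marked by a line) for each KNDy gene (rows) under E2 (left) and under oil (right), with 95% intervals of the limma fit of 3 libraries a group. Filled points passed the adjusted threshold. Under E2 the filled points are Kiss1 and Tacr3 of both mutants against WT, from 1.03 to 3.66, and under oil the one filled point is Pdyn of ERKO against WT, at −1.14.

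Ordered by mean level, WT E2 came last of the 6 groups for Kiss1, Tac2, Tacr3 and Oprk1. For Kiss1 the step from the next group, KIKO E2, to WT E2 was 7.15-fold and without overlap, and all higher neighbours in the order (KIKO oil, ERKO E2, WT oil, ERKO oil, KIKO E2) overlapped. For Tacr3 the order was WT oil, KIKO oil, ERKO oil, ERKO E2, KIKO E2 and WT E2, with gaps between KIKO oil and ERKO oil and between KIKO E2 and WT E2. Pdyn came as WT oil, KIKO oil, KIKO E2, WT E2, ERKO oil and ERKO E2, and the last 3 overlapped. Tac2 ran from WT oil through KIKO oil, ERKO E2, KIKO E2 and ERKO oil to WT E2 with every pair of neighbours overlapping. Oprk1 was highest in ERKO oil and ERKO E2 and lowest in WT, and each neighbour overlapped the next, as did those of Kiss1r.

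KNDy neurons make all 3 peptides, and a ratio of their FPKM within a library does not depend on its depth. Each ratio is that of the whole dissected tissue, and bulk RNA does not show which cells it came from. Kiss1 was 7.45%, 9.28% and 3.93% of Tac2, FPKM over FPKM, in the WT E2 libraries, against 36.7%, 33.5% and 32.8% in the WT oil libraries. All WT E2 libraries were far below the WT oil libraries, which were close together. In KIKO it was 33.3%, 43.4% and 38.3% in the E2 libraries, against 43.5%, 45.8% and 50.5% in the oil libraries. In ERKO it was 55.9%, 58.5% and 70.2% in the E2 libraries, against 45.4%, 47.6% and 43.1% in the oil libraries. The KIKO E2 libraries were all below the KIKO oil libraries and the ERKO E2 libraries all above the ERKO oil libraries.

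Pdyn relative to Tac2 overlapped in WT, at 14.3%, 15.5% and 13.0% in the E2 libraries, against 13.6%, 12.3% and 14.8% in the oil libraries. In KIKO it averaged 16.5 ± 3.11% in the E2 libraries and 13.0 ± 1.57% in the oil libraries, and in ERKO 10.3 ± 6.29% in the E2 libraries and 11.6 ± 2.18% in the oil libraries (SD, n = 3 each). The ERKO E2 libraries were spread widely, with the lowest ratio, 4.55%, in ERKO E2 3 and the next, 9.26%, in ERKO E2 1. Tacr3 relative to Tac2 was 0.428% to 0.509% in the WT E2 libraries, against 0.794% to 1.42% in the WT oil libraries, without overlap. These ratios are descriptions and were not tested.

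**Figure D4:**
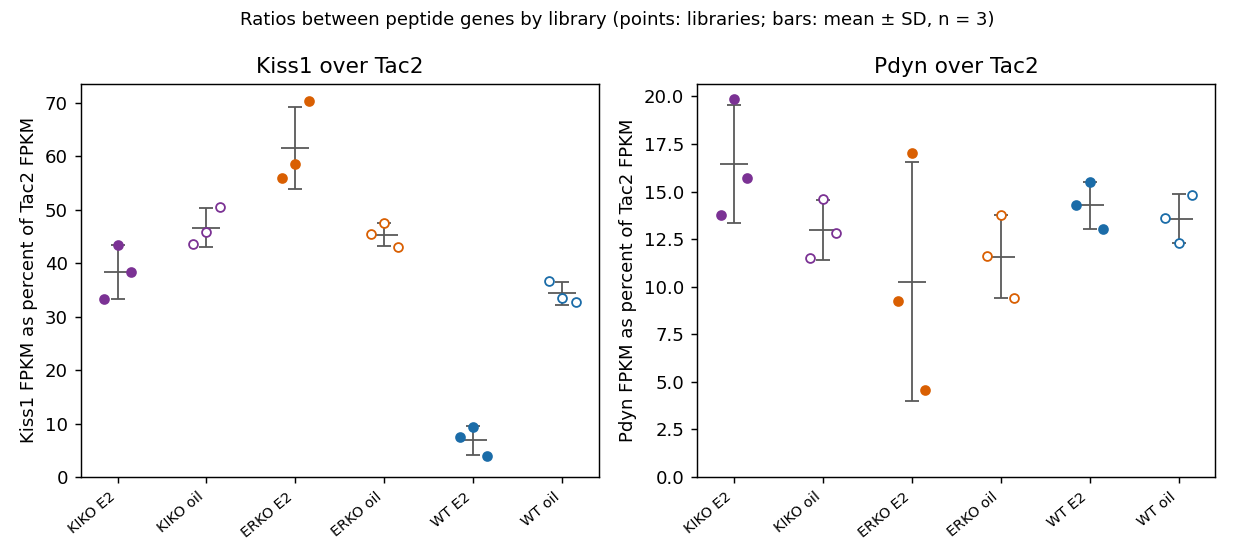
FPKM of Kiss1 (left) and Pdyn (right) as a percentage of the FPKM of Tac2 in the same library (y axes, from 0) by group (x axis). Points are libraries, filled for E2 and open for oil, and bars are the mean ± SD of 3 libraries. Kiss1 over Tac2 is 3.93% to 9.28% in WT E2 and 32.8% or more in every other library, while Pdyn over Tac2 overlaps between WT E2, at 13.0% to 15.5%, and WT oil, at 12.3% to 14.8%.

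Within groups Kiss1 and Tac2 varied together. The same library held the highest Kiss1 and the highest Tac2 in 5 of the 6 groups, and the lowest of both in 5 of the 6. Across the 18 libraries, as deviations from the group means, Kiss1 correlated with Tac2 at r = 0.75 (0.73 without ERKO E2 3), with Pdyn at 0.10 (0.43 without it) and with Tacr3 at 0.15 (0.24 without it). Pdyn correlated with Tacr3 at 0.67 and Kiss1r with Oprk1 at 0.62. Libraries share dissection and depth across all genes, so these values are descriptions.

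The search for likeness took the 12517 tested genes that averaged 1 FPKM or more, leaving out the members and genes with clone names. Among these, the genes whose log2(FPKM + 1) most resembled that of each member over the 18 libraries were taken. For Kiss1 they were Sema4f, a semaphorin gene (Pearson r = 0.90), Apex2, an AP endonuclease gene (0.88), Bdnf, which encodes brain-derived neurotrophic factor (0.85), Lrrtm1, a leucine-rich repeat synaptic gene (0.84), and Ccdc88b (0.84). Without ERKO E2 3 these were 0.90, 0.90, 0.87, 0.83 and 0.84 over 17 libraries. As deviations from the group means the 5 correlated with Kiss1 at 0.73, −0.27, 0.54, 0.63 and 0.72, so Apex2 resembled Kiss1 in the group means and not within groups. For Tacr3 they were Sox3, a transcription factor gene (0.90), Bdnf (0.89) and Nxph3, a neurexophilin gene (0.87), with 0.20, 0.29 and 0.54 within groups. Nxph3 (0.87) also led for Tac2, before Cthrc1 (0.83) and Gstm6 (0.83).

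These genes were chosen for their likeness to genes that were low in WT E2, over the same libraries, so their values there describe that choice and are no separate evidence. Sox3, Nxph3 and Bdnf were below limma's threshold for E2 against oil in WT. Sox3 averaged 10.6 ± 1.53 FPKM in WT E2 and 28.9 ± 1.25 FPKM in WT oil (−1.38 ± 0.15, adjusted p = 0.000128). Nxph3 averaged 2.08 ± 1.01 FPKM in WT E2 and 7.15 ± 1.51 FPKM in WT oil (−1.44 ± 0.21, adjusted p = 0.00237). Bdnf averaged 1.36 ± 0.381 FPKM in WT E2 and 4.69 ± 0.996 FPKM in WT oil (−1.27 ± 0.19, adjusted p = 0.00287). Sema4f and Apex2 did not pass (−0.40 ± 0.09 and −0.38 ± 0.09, adjusted p = 0.0611 and 0.0509).

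The correlates of Pdyn were Osbp2 (0.91), Tfe3 (0.88) and Mier2 (0.86), which depended more on the library that stood apart, at 0.87, 0.81 and 0.80 without it. Those of Kiss1r were Slc8a2 (0.78), Optn (0.78) and Hipk4 (0.76), at 0.66, 0.70 and 0.66 without it. Those of Oprk1 were Ccdc41 (0.88), Exd2 (0.86) and Polr3a (0.86). None of these 9 passed for E2 against oil in WT by limma, where the largest change was −0.28 ± 0.10 for Osbp2 (adjusted p = 0.313).

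None of the relatives of the members passed. Of 17 tachykinin, opioid, kisspeptin and RFamide relatives, such as Tac1 (substance P), Penk (enkephalin) and Oprm1 (the mu opioid receptor), 15 were tested, Tac4 and Tacr2 being too low. By limma 0 passed in any of the 12 comparisons, with 0 to 2 at an unadjusted p under 0.05 in each. Their median log2 change for E2 against oil in WT was −0.17, against −1.17 for the 6 members and 0.01 for all genes.

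Of 20 partners of the pulse generator, such as steroid receptors and fast transmitter genes, 18 were tested, and 2 rose after E2 in WT. Pgr, the progesterone receptor gene and a classical target of ERα, averaged 15.8 ± 2.11 FPKM in WT E2 and 4.44 ± 1.09 FPKM in WT oil (1.64 ± 0.19, limma adjusted p = 0.000166). Ghsr, the ghrelin receptor gene, averaged 12.7 ± 2.26 FPKM in WT E2 and 3.95 ± 2.06 FPKM in WT oil (1.53 ± 0.33, adjusted p = 0.0409). The list's median in WT was 0.09. In KIKO and in ERKO 0 of the 18 passed. Against WT E2, Pgr was lower in KIKO E2 (−1.45 ± 0.19, adjusted p = 0.000619), and Pgr (−1.81 ± 0.19), Ghsr (−1.61 ± 0.33), Nr5a2 (−1.29 ± 0.29) and Nhlh2 (−0.72 ± 0.13) were lower in ERKO E2. Pgr thus ran opposite to Kiss1 in the same libraries, and its interaction term for ERKO minus WT was −1.97 ± 0.26 (adjusted p = 0.00183). Under oil Esr1 was the one partner called, lower in ERKO against WT (−1.49 ± 0.32, adjusted p = 0.0367).

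All 12 genes of peptide processing and the secretory granule were tested, and 2 fell after E2 in WT. Vgf, a granin gene, averaged 245 ± 57.5 FPKM in WT E2 and 664 ± 67.8 FPKM in WT oil (−1.46 ± 0.17, limma adjusted p = 0.000166). Pcsk1, which encodes a convertase that cuts peptide precursors, averaged 20.9 ± 5.04 FPKM in WT E2 and 45.0 ± 13.6 FPKM in WT oil (−1.06 ± 0.23, adjusted p = 0.0377). Under oil Vgf was lower in ERKO against WT (−1.16 ± 0.17, adjusted p = 0.0124), and its interaction term for ERKO minus WT passed (1.86 ± 0.23, adjusted p = 0.00107). The median of the 12 for E2 against oil in WT was −0.11.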

How the data were processed

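RNA-seq of the arcuate nucleus was deposited as 1 gene table per library, with values and confidence bounds in FPKM per the file headers. Per the submitters' processing notes, TopHat2 2.0 and Cuffdiff were used on build mm10; the annotation is not given in the sources used here. The listed start of 0 of the 6 members lay within 1000 bases of its RefSeq GRCm38 start, so no position is taken from the tables. All 18 tables held the same 23699 entries under 23235 symbols, and entries that shared a symbol were summed.

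Genes averaging 0.5 FPKM or more, small RNA genes left out, were tested on log2(FPKM + 1) with limma 3.58.1 in R 4.3.3: 1 fit of 6 group means over 18 libraries (12 residual degrees of freedom), a trended and robust variance prior, two-sided tests and Benjamini-Hochberg adjustment over 14774 genes. The 12 comparisons set E2 against oil within genotypes, the genotypes under each treatment, and the interactions. The number of fragments behind a value was worked out from its confidence bounds and was whole within 0.05 for 60 of the 108 values of the members; it covers counting error only and entered no test. Python 3.11.15 with pandas 2.3.3, numpy 2.4.6 and matplotlib 3.10.9 served for tables and figures.

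All members are named in each comparison, with up to 4 genes past the threshold per list. The 3 genes most correlated with each member (5 for Kiss1), out of the 12517 searched, are named too. The members, the 4 gene lists and the marker lists were chosen with earlier results of these data known. One of the lists, of genes acting below the receptors, is not reported here. Data were simulated for E2 against oil in WT over 14774 genes, with changes planted only in genes averaging over 1 in log2(FPKM + 1). The noise was independent and normal at each gene's fitted spread, with no library standing apart. There 84% of 100 genes changed by 1 on the log2 scale and 100% of 100 changed by 2 were recovered, with 10 unchanged genes called. Alternatives changed the filter, pseudocount, scaling, variance prior, weights and the libraries fitted, and added a replicate block.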

Additional observations from a re-analysis of the deposited data

Results flagged for a closer look

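Among the members, the gene lists and the marker lists, the E2 response differed between genotypes in 6 results, for 5 genes. The test was that of the difference itself, limma's interaction term. Genes chosen for their likeness to the members were not counted here. Kiss1 differed by 2.72 on the log2 scale for KIKO minus WT (adjusted p = 0.0190) and by 4.16 for ERKO minus WT (adjusted p = 0.000242), and Tacr3 differed by 1.83 for ERKO minus WT (adjusted p = 0.00903). Both terms rest on the WT libraries, whose E2 and oil values did not overlap for either gene. Among the listed genes, Pgr differed by −1.97 for ERKO minus WT, with 3.89 ± 1.33 FPKM in ERKO E2 and 4.99 ± 0.456 FPKM in ERKO oil, against 15.8 ± 2.11 FPKM in WT E2 and 4.44 ± 1.09 FPKM in WT oil. Vgf differed by 1.86 for ERKO minus WT, with 393 ± 46.1 FPKM in ERKO E2 and 295 ± 15.7 FPKM in ERKO oil, against 245 ± 57.5 FPKM in WT E2 and 664 ± 67.8 FPKM in WT oil.

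Gldn, from the list of ventromedial nucleus markers, differed by 1.95 for KIKO minus WT (limma adjusted p = 0.0146). It averaged 8.34 ± 2.78 FPKM in KIKO E2 and 2.12 ± 0.570 FPKM in KIKO oil, against 0.711 ± 0.0571 FPKM in WT E2 and 1.29 ± 0.492 FPKM in WT oil. It was the single gene called for E2 against oil in KIKO (1.55 ± 0.22, limma adjusted p = 0.0441). No gene was called there with a pseudocount of 0.1, with the replicate block or with only the KIKO groups in the fit. The same held without KIKO oil 1, KIKO oil 2, KIKO oil 3, KIKO E2 2 or KIKO E2 3. The sum of the 5 ventromedial markers overlapped, at 34.0 to 65.8 FPKM in KIKO E2 and 29.5 to 52.1 FPKM in KIKO oil. The part of these values in those of the KNDy genes was not tested.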

How the results depend on the processing

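No result of a KNDy gene changed direction while past the threshold under any alternative. The direction of the other genes named here was not followed through the alternatives. The counts of KNDy genes changed as follows. For E2 against oil in WT, 4 genes passed in the fit as reported and 3 with no filter, quantile normalization or the replicate block, each of which ended the call of Pdyn. With library weights 3 passed for the ERKO minus WT response, ERKO E2 against WT E2 and KIKO E2 against WT E2, where 2 did as reported, and for KIKO E2 against WT E2 it was also 3 with ERKO E2 3 left out. For ERKO oil against WT oil, 1 gene passed in the fit as reported, 3 with library weights, 2 with only these groups in the fit and 3 with ERKO E2 3 left out of the shared fit. For KIKO oil against ERKO oil it was 2 with library weights, for ERKO E2 against WT E2 it was 0 with only these groups, and for the ERKO minus WT response 1 with only these groups. Without 1 library of the compared groups at a time the count ran from 2 to 4 for E2 against oil in WT, was 0 for ERKO oil against WT oil and 1 for KIKO E2 against WT E2 in every fit, and ran from 1 to 3 for ERKO E2 against WT E2, from 0 to 2 for the KIKO minus WT response and from 2 to 3 for the ERKO minus WT response. In the other comparisons it was 0 in each of these fits.

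Same-numbered libraries did not deviate together throughout (r of −0.314 to 0.526 over 27 pairs, with 9 of 27 closest to their own number). With 3 libraries a group the deviations depend on each other, so this check cannot tell whether the numbers pair libraries. The tests took the libraries as unpaired. A replicate block ended the call of Pdyn for E2 against oil in WT (adjusted p = 0.0686), and gave 0 KNDy genes for ERKO oil against WT oil, and 64 genes in all; it gave 0 genes for E2 against oil in KIKO and 1 for KIKO oil against WT oil.

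Counts over all genes moved more. For E2 against oil in WT there were 209 genes with library weights, 71 with only these groups and 397 with ERKO E2 3 left out (71 to 152 without 1 library). In KIKO there were 0 with a pseudocount of 0.1, 3 with no filter on low values, 4 with library weights and 0 with only these groups (0 to 1), and in ERKO 1 with library weights (0 to 1). For KIKO oil against WT oil there were 0 with a pseudocount of 0.1 and with a mean of at least 1 FPKM, 7 with no filter and with quantile normalization, 351 with library weights, 10 with only these groups and 268 with ERKO E2 3 left out (0 to 8). For ERKO oil against WT oil there were 430 with quantile normalization, 2932 with library weights, 1661 with only these groups and 3319 with ERKO E2 3 left out (1 to 287). For KIKO oil against ERKO oil there were 1 with no filter and 75 with library weights (0 without 1 library). For KIKO E2 against WT E2 there were 1030 with library weights and 596 with ERKO E2 3 left out (55 to 86), for ERKO E2 against WT E2 1302 with library weights and 13 with only these groups (95 to 1286), and for KIKO E2 against ERKO E2 0 with only these groups (2 without 1 library). For the KIKO minus WT response there were 9 with a pseudocount of 0.1, 31 with no filter, 59 with library weights and 42 with ERKO E2 3 left out (7 to 25). For the ERKO minus WT response there were 26 with quantile normalization, 73 with library weights and 18 with only these groups (25 to 104), and for KIKO minus ERKO 2 with no filter (0 to 1). The cause of these moves was not tested.

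Among the results of single KNDy genes over the settings, 1179 kept their side of the threshold, 35 lost a call and 16 gained one. Kiss1r had the fewest implied fragments, 87 to 280 a library, and a counting error of up to 21.4% at the bounds.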
